A study of Mus musculus with 28 samples.

Results

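The expression of 45 genes of the unfolded protein response and of secretory transport was examined in tail tendon fascicles of Fosl-2(Tg) mice and their wild-type (WT) controls. The genes were chosen by name, as ER chaperones, protein disulfide isomerases, transcription factors of the unfolded protein response, translocon subunits, COPII and COPI coat subunits and KDEL receptors, from the 25719 genes in the deposited count tables. All 45 were identified and passed the filter on low counts in both cohorts. In Fosl-2(Tg) mice a murine *Fosl2* transgene (its product is a member of the AP-1 family) is inserted at random under the MHC class I promoter H2Kb, together with an eGFP marker, so that transgene expression is not restricted to tendon cells. All mice were on the C57BL/6 background. The early cohort (6 to 8 weeks of age) comprised 7 WT and 8 Fosl-2(Tg) mice, all male. The established cohort (older than 14 weeks) comprised 6 WT mice, 5 of them female, and 7 Fosl-2(Tg) mice, 6 of them female. Stage and sex were therefore nearly inseparable, and the cohorts were scaled separately, so that levels in CPM (counts scaled to library size) are compared within a cohort.

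Collagen and other secreted proteins enter the endoplasmic reticulum (ER) through the Sec61 translocon and are folded there by chaperones and disulfide isomerases. At ER exit sites, MIA2 and MIA3 help to load bulky procollagen, and COPII coats carry folded cargo from there towards the Golgi. COPI coats return escaped ER proteins, which KDEL receptors recognise by their C-terminal signal. When unfolded proteins accumulate, the sensors IRE1, ATF6 and PERK raise chaperone transcription through XBP1, ATF6 and ATF4, and CREB3L1 is a related membrane-bound factor known in collagen-secreting cells.

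*Fosl2* itself overlapped between genotypes at both stages. In the early cohort it ranged from 49.6 to 117 CPM in WT and from 53.7 to 134 CPM in Fosl-2(Tg) mice (log2 difference 0.20, edgeR FDR = 0.918), and in the established cohort from 94.1 to 202 CPM and from 145.5 to 191.5 CPM (log2 difference 0.38, FDR = 0.142). *Col1a1*, the chief secretory cargo of tendon cells, ranged from 87100 to 297400 CPM in early WT and from 118500 to 327400 CPM in early Fosl-2(Tg) mice. In the established cohort the WT mice had 53250 to 119200 CPM and the Fosl-2(Tg) mice 1207 to 33960 CPM, so that the genotypes did not overlap (log2 difference -2.50 ± 0.63 SE, FDR = 0.0356). Library totals ranged from 9645598 to 66894396 counts. Of 10 tendon fibroblast markers, a list that holds *Col1a1*, 4 were lower in established Fosl-2(Tg) mice, where their summed level was 8778 to 96200 CPM against 121700 to 230600 CPM in WT mice. Of 8 macrophage markers, 1 was higher in established Fosl-2(Tg) mice, where the 8 together summed to 991 to 1763 CPM against 779 to 1347 CPM in WT mice. The 10 skeletal muscle markers summed to between 76.0 and 23540 CPM in established WT and between 57.3 and 8212 CPM in established Fosl-2(Tg) mice, and none was called, with a median log2 difference of -1.74 over the 10. The 6 erythroid markers summed to between 10.7 and 24.2 CPM in established WT and between 12.3 and 152 CPM in established Fosl-2(Tg) mice, with a median log2 difference of 2.38 over the 4 tested, none called. The 8 keratinocyte markers summed to between 41.5 and 83.7 CPM and between 19.6 and 60.8 CPM, and none of the 3 tested was called. *Krtdap* (up to 44.6 CPM), *Dsp* (up to 33.7 CPM) and *Krt10* (up to 4.42 CPM) were above 0 in every library, whereas *Krt5*, *Krt14*, *Krt1* and *Dsg1a* reached at most 0.352 CPM. No marker of B and plasma cells, adipocytes or endothelium was called. In bulk tissue, fewer cells of a type and less RNA per cell cannot be told apart, and the part of these markers in the results below was not tested.

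Per kilobase of exon, the abundant members in established WT mice were *P4hb*, *Creb3l1*, *Calr*, *Atf4* and *Pdia3*, and *Ddit3* was the lowest of the 45. *P4hb* encodes the disulfide isomerase that is also a subunit of prolyl 4-hydroxylase, and *Ddit3* encodes CHOP, the factor of unresolved ER stress.

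Promoters of the folding factors held matches to a sequence that was not found in those of the transport genes. The 250 bases before and 50 bases from the start of each gene's Ensembl canonical transcript (GRCm39, GENCODE M39) were searched on both strands, in all 45 members and in 14246 tested protein-coding genes. This start can lie inside the gene, as in *Hspa5*, *Ddit3* and *Sec24a*, which have longer annotated transcripts. The ER stress response element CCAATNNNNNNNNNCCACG, known to be bound by NF-Y together with ATF6 or XBP1, was found in 6 of 13 promoters of chaperones and disulfide isomerases, in 0 of 23 promoters of translocon, coat and KDEL receptor genes, and in 0.126% of all promoters (18, the members included). Its matches are shown as a description. ATF6 and XBP1 are known to drive chaperone genes, and the genes were chosen as part of that response. The split from the transport genes is therefore not independent of the choice of genes. Each is given 5′ to 3′ on the strand of its gene, with the match in capitals. In *Calr* and the second *Hsp90b1* match, the capitals spell the element on the opposite strand.
Hspa5 (chr2:34662032-34662060, plus strand): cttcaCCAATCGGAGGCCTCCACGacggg
Hsp90b1, first match (chr10:86541497-86541525, minus strand): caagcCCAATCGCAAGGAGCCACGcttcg
Hsp90b1, second match (chr10:86541392-86541420, minus strand): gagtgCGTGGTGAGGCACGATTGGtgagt
Calr (chr8:85573699-85573727, minus strand): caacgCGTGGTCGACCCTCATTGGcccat
Canx (chr11:50216622-50216650, minus strand): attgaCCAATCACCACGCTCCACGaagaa
Dnajc3 (chr14:119175234-119175262, plus strand): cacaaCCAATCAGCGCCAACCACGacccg
Pdia6 (chr12:17316487-17316515, plus strand): agagaCCAATGAAAGGCGGCCACGgcgtg

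The second form of the element, ERSE-II, was found in *Manf*, *Hyou1* and *Herpud1*, and in 0.0913% of all promoters. The XBP1-type core TGACGTGG was found in *Hyou1*, where it overlaps a match of the second form, and in *Sec24a*, *Sec24d* and *Kdelr3*, against 0.877% of all promoters. The composite site TGATGNAA of ATF4 and CHOP was found in *Ddit3*, *Herpud1* and *Kdelr1* (2.51% of all). The AP-1 site TGACTCA, the kind of site that FOSL2 dimers are known to bind, was found in 3 of 45 members, *Hspa5*, *Ddit3* and *Sec61b*, against 3.9% of all promoters, and the cyclic AMP element TGACGTCA in 0 of 45 against 3.03%. A match describes letters and not binding. The matches in *Manf* and *Herpud1*, in *Kdelr3*, the member with the most negative called difference, and those of the AP-1 site were as follows, with capitals as above. In *Manf*, *Kdelr3* and *Hspa5*, the capitals spell the element on the opposite strand.
Manf, second form (chr9:106769233-106769253, minus strand): gggcaCGTGGACCAATgagga
Herpud1, second form (chr8:95113000-95113020, plus strand): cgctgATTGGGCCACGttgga
Kdelr3, XBP1-type core (chr15:79400574-79400591, plus strand): ccccgCCACGTCAccgcg
Hspa5, AP-1 site (chr2:34661915-34661931, plus strand): gccaaTGAGTCAgcccg
Ddit3, AP-1 site (chr10:127126415-127126431, plus strand): gcgcaTGACTCActcac
Sec61b, AP-1 site (chr4:47474442-47474458, plus strand): atgccTGACTCAatttc

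At the early stage none of the 45 genes differed between genotypes. With edgeR, 0 members passed an FDR of 0.05 and 0 had an unadjusted p under 0.05, where 6.06% of all genes did. DESeq2 also called 0, with 1 member at an unadjusted p under 0.05. Among all 15138 genes tested, 0.00661% were called higher and 0.0330% lower. The log2 differences of the members lay between -0.21 (*Hspa5*) and 0.38 (*Copz2*), 35 above 0 and 10 below, with a median of 0.07 against -0.01 over all genes. With a muscle score as a covariate, 26 were above 0 and 19 below. Without WT replicate 3 the split was 25 above and 20 below, without WT replicate 2 it was 27 and 18, and in the libraries numbered above 54 it was 25 and 20. The signs by role, which were not tested between roles, were as follows. Of the 9 chaperones, 7 were below 0, among them *Hspa5* (-0.21 ± 0.17 SE), which encodes the chaperone BiP, and *Hyou1* (-0.17 ± 0.18), which encodes its nucleotide exchange factor. All 8 COPII, 8 COPI, 4 translocon and 3 KDEL receptor genes were above 0, with medians of 0.08, 0.11, 0.16 and 0.18.

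At the established stage 7 of the 45 genes were lower in Fosl-2(Tg) mice and none was higher, where 3.37% of all 15862 genes were called lower and 3.14% higher. The genes that fell were *Kdelr3*, *Copz2*, *Sec31a*, *Sec13*, *Cope*, *Ssr4* and *Copa*, which belong to the translocon, coat and KDEL receptor lists. DESeq2 called 19 members, all lower, and edgeR called 18 with the muscle score and 12 with all 28 libraries in 1 fit. These included *Creb3l1* in all 3 settings, *Atf4* in the first 2 and *Herpud1* with the muscle score. Over all genes, the 3 settings called 1132 of 21971, 965 of 15862 and 932 of 16082 lower. In all, 36 members had a log2 difference below 0 and 9 above, and the median was -0.35 against 0.01 over all genes. At an unadjusted p under 0.05, 26 members were lower and 1 was higher. The share of all genes at that p was not computed for this stage. The highest Fosl-2(Tg) value was under the lowest WT value in 7 members (*Ssr4*, *Sar1a*, *Copa*, *Copg1*, *Cope*, *Arcn1* and *Kdelr3*), against 2.27% of all genes.

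**Figure D1:**
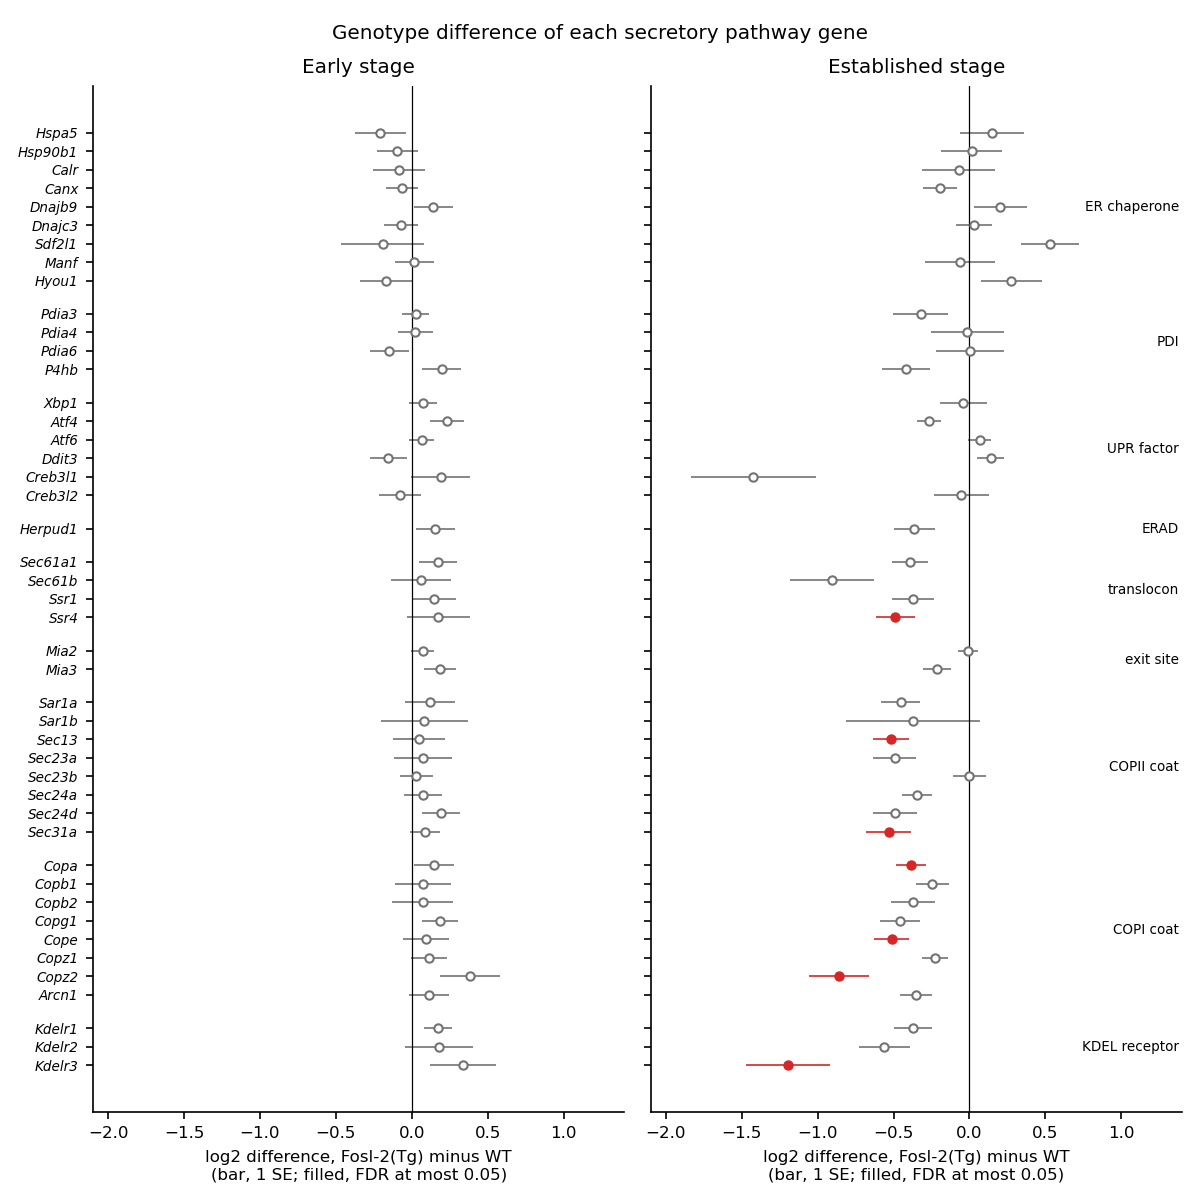
Log2 difference between Fosl-2(Tg) and WT mice for each of the 45 genes, grouped by role, at the early (left) and established stage (right). Bars show 1 SE and filled points an FDR of at most 0.05. All early points are open, and the 7 filled established points, from -0.38 (Copa) to -1.19 (Kdelr3), belong to the translocon, coat and KDEL receptor genes.

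KDEL receptors, which return ER proteins from the Golgi, held the most negative called difference. *Kdelr3* (ENSMUSG00000010830, chr15:79400596-79411940) had 60.0, 70.1 and 97.3 CPM in the lowest, median and highest established WT mouse, and 11.4, 32.4 and 50.7 CPM in the Fosl-2(Tg) mice. The groups did not overlap, and the level in Fosl-2(Tg) mice was 0.437 times that of WT mice (log2 difference -1.19 ± 0.28 SE, FDR = 0.0273). *Kdelr2* had a log2 difference of -0.56 ± 0.17 (FDR = 0.0612) and *Kdelr1* one of -0.37 ± 0.12 (FDR = 0.081), so that neither passed the test. *Kdelr1* ranged from 86.9 to 105.9 CPM in WT and from 47.2 to 93.3 CPM in Fosl-2(Tg) mice, and the groups overlapped.

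All 8 COPI coat genes had a log2 difference below 0 and an unadjusted p under 0.05, and 3 of them were called. *Copz2* (ENSMUSG00000018672, chr11:96740668-96752029), which encodes the zeta-2 subunit, had 52.5, 62.5 and 75.9 CPM in the lowest, median and highest WT mouse and 17.6, 36.3 and 53.2 CPM in Fosl-2(Tg) mice (log2 difference -0.86 ± 0.19, FDR = 0.0251). Only the highest Fosl-2(Tg) mouse reached the WT range. *Cope* (ENSMUSG00000055681, chr8:70755161-70766918), the epsilon subunit, had 87.1, 95.9 and 113 CPM in WT and 52.1, 70.0 and 84.2 CPM in Fosl-2(Tg) mice (-0.51 ± 0.12, FDR = 0.0248), with no overlap. *Copa* (ENSMUSG00000026553, chr1:171910077-171949900), the alpha subunit, had 375, 426 and 488 CPM in WT and 269, 355 and 370.4 CPM in Fosl-2(Tg) mice (-0.38 ± 0.10, FDR = 0.0378), again with no overlap. *Copz2* and its paralog *Copz1*, which encodes the zeta-1 subunit, stood at different values, since *Copz1* had a log2 difference of -0.23 ± 0.09 (FDR = 0.114). That difference between the paralogs was not tested. *Copg1*, *Arcn1*, *Copb2* and *Copb1* had log2 differences of -0.46, -0.35, -0.37 and -0.24 and were not called (FDR from 0.0517 to 0.169). *Copg1*, the gamma-1 subunit, ranged from 195.7 to 251 CPM in WT and from 113 to 195.5 CPM in Fosl-2(Tg) mice.

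Of the 8 COPII genes, 2 were called and the median log2 difference was -0.47. The outer coat is built from SEC13 and SEC31, and both genes fell. *Sec13* (ENSMUSG00000030298, chr6:113705023-113717706) had 55.8, 64.1 and 90.8 CPM in WT and 35.8, 47.5 and 56.1 CPM in Fosl-2(Tg) mice (-0.52 ± 0.12, FDR = 0.0286). *Sec31a* (ENSMUSG00000035325, chr5:100509494-100564425) had 375, 433 and 510.2 CPM in WT and 193, 322 and 377 CPM in Fosl-2(Tg) mice (-0.53 ± 0.15, FDR = 0.0462). In both, only the upper end of the Fosl-2(Tg) range touched the WT mice. Of the inner coat and its GTPase, *Sar1a* (-0.45 ± 0.13), *Sec24a* (-0.35 ± 0.10), *Sec23a* (-0.49 ± 0.14) and *Sec24d* (-0.49 ± 0.14) had FDR values from 0.0517 to 0.0566. *Sec24d*, a cargo adaptor whose loss is known to disturb skeletal collagen secretion, ranged from 193 to 266 CPM in WT and from 102 to 198 CPM in Fosl-2(Tg) mice. *Sec23b*, the second *Sec23* gene, had a log2 difference of 0.00 ± 0.11 and nearly the same median in both genotypes (45.9 CPM in WT and 44.9 CPM in Fosl-2(Tg) mice). The procollagen loader *Mia3* (TANGO1) had a log2 difference of -0.21 ± 0.09 (FDR = 0.167; 193 to 249 CPM in WT, 163.5 to 230.3 CPM in Fosl-2(Tg) mice), and *Mia2* one of -0.01 ± 0.07.

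In the translocon all 4 genes had a negative log2 difference and 1 was called. *Ssr4* (ENSMUSG00000002014, chrX:72830304-72836970), a subunit of the translocon-associated protein complex, had 50.2, 52.0 and 89.0 CPM in WT and 35.7, 41.4 and 48.0 CPM in Fosl-2(Tg) mice (-0.49 ± 0.13, FDR = 0.0414). The genotypes did not overlap, although the highest WT mouse stood apart from the other WT mice. *Sec61b* had the larger difference but a wider spread, with 32.8, 42.7 and 77.2 CPM in WT and 12.4, 26.6 and 38.1 CPM in Fosl-2(Tg) mice (-0.90 ± 0.27, FDR = 0.0632). *Sec61a1*, the channel subunit, ranged from 255 to 348 CPM in WT and from 159.5 to 255 CPM in Fosl-2(Tg) mice (-0.39 ± 0.12, FDR = 0.0658), so that the ranges met.

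The chaperones gave a different picture, with 6 of 9 above 0, a median log2 difference of 0.03 and none called. *Hspa5* had 226, 234 and 339 CPM in the lowest, median and highest WT mouse and 149, 339 and 408 CPM in Fosl-2(Tg) mice (0.15 ± 0.21, FDR = 0.675). The Fosl-2(Tg) mice spanned a wider range than the WT mice and enclosed it. *Calr*, which encodes calreticulin, behaved alike in its spread (265 to 376 CPM in WT, 133 to 391 CPM in Fosl-2(Tg) mice; -0.07 ± 0.24). *Sdf2l1*, an ER-resident cofactor of BiP, had the highest log2 difference of the 45 genes, 0.53 ± 0.19 (5.23, 6.39 and 8.41 CPM in WT and 5.11, 10.2 and 12.9 CPM in Fosl-2(Tg) mice), which did not pass the test (FDR = 0.102). Of the disulfide isomerases, *P4hb* ranged from 487 to 649 CPM in WT and from 265 to 504 CPM in Fosl-2(Tg) mice (-0.42 ± 0.16, FDR = 0.117), while *Pdia4* and *Pdia6* had log2 differences of -0.01 and 0.00 and *Pdia3* one of -0.32. None of these was called. Whether chaperones and transport genes differed from each other in their genotype effect was not tested.

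None of the transcription factors of the unfolded protein response was called either. *Xbp1* had 132, 149.7 and 184 CPM in WT and 97.2, 148 and 189.9 CPM in Fosl-2(Tg) mice (-0.04 ± 0.16, FDR = 0.894). *Ddit3* had 13.9, 16.5 and 18.1 CPM in WT and 15.1, 17.3 and 20.01 CPM in Fosl-2(Tg) mice (0.14 ± 0.09, FDR = 0.332). These counts do not separate spliced from unspliced *Xbp1* mRNA, and *Ddit3* has a second short identifier inside the same locus, which was not used. *Atf4* had 115, 131 and 146 CPM in WT and 96.0, 107 and 128 CPM in Fosl-2(Tg) mice (-0.27 ± 0.08, FDR = 0.0614). *Creb3l1* (ENSMUSG00000027230, chr2:91812673-91854917) had the most negative difference of all 45 genes, with 165, 261 and 318 CPM in WT and 14.4, 88.3 and 202 CPM in Fosl-2(Tg) mice (-1.42 ± 0.41). Its FDR of 0.0537 lay just outside the threshold, and the highest Fosl-2(Tg) mouse overlapped with the WT mice. *Herpud1*, of ER-associated degradation, ranged from 138 to 212 CPM in WT and from 96.8 to 170.1 CPM in Fosl-2(Tg) mice (-0.36 ± 0.14, FDR = 0.116).

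**Figure D2:**
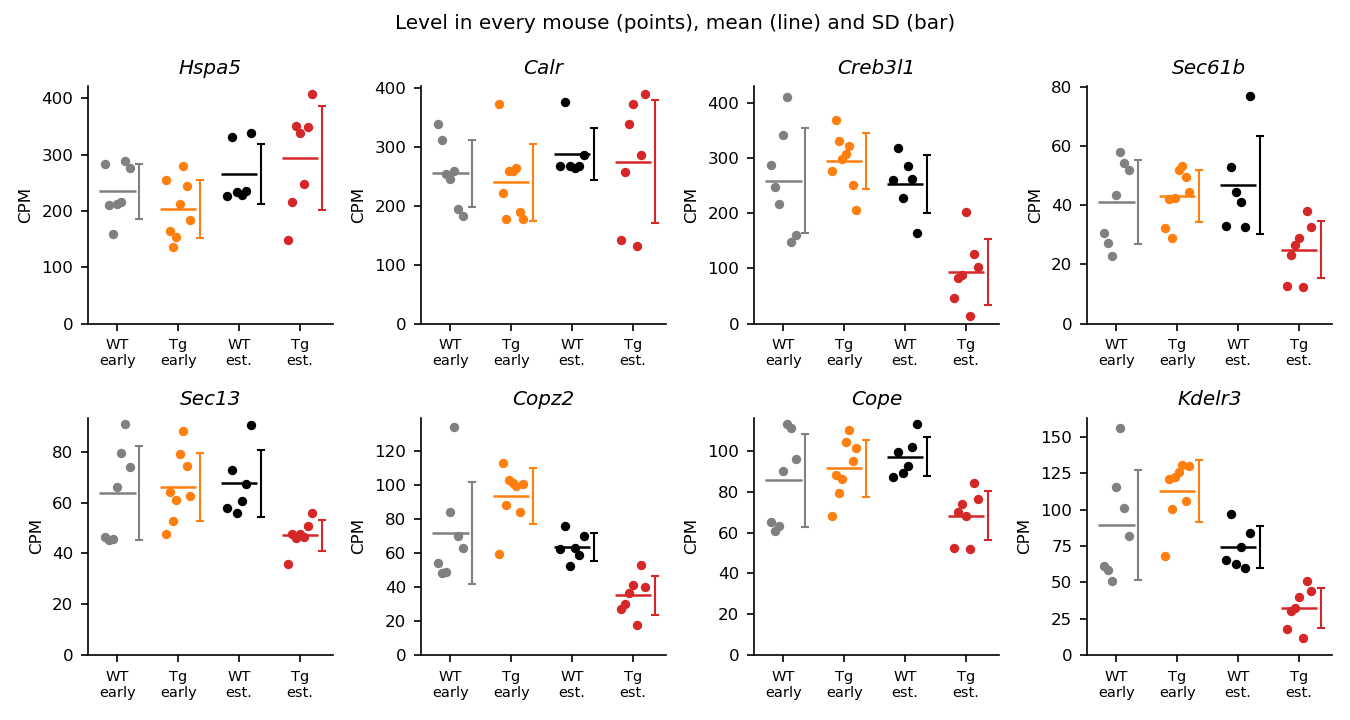
Level in CPM (linear axis from 0) of 8 genes in every mouse, with the mean as a line and the SD as a bar, for WT and Fosl-2(Tg) mice at the early and the established (est.) stage. The established Fosl-2(Tg) mice lie below the WT mice for Kdelr3 and Cope and almost so for Copz2 and Sec13, whereas for Hspa5 and Calr they span the WT range. The stages were scaled separately.

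The number of established calls depended on single mice, in the members and over all genes. Lower calls over all genes were 534 of 15862 with every mouse and 223 of 15891 without WT replicate 2. They were 213 of 15792 without Fosl-2(Tg) replicate 1 and 599 of 15813 without Fosl-2(Tg) replicate 6. Leaving out WT replicate 2 left 0 of the 7 calls with edgeR (23 members at an unadjusted p under 0.05), leaving out Fosl-2(Tg) replicate 1 or 2 left 1 member each, and leaving out WT replicate 1, 4, 5 or 6 or Fosl-2(Tg) replicate 3 left 2, 3, 2, 3 and 4, whereas 11 and 14 members were called without Fosl-2(Tg) replicate 4 and 6. Without Fosl-2(Tg) replicate 5, the male, *Sdf2l1* was called higher (0.63, FDR = 0.0306) beside 8 members called lower, and *Ssr4* was not called. Over all 15783 genes in that fit, 442 were called higher and 529 lower. In females only, 3 members were called (*Kdelr3* -1.10, *Copz2* -0.77 and *Creb3l1* -1.22), and with sex as a covariate 19, all lower. Over all genes, 359 of 15853 were lower in females only and 832 of 15862 with sex as a covariate. In the libraries numbered up to 72, 9 members were called. There the Fosl-2(Tg) mice have numbers 64 to 67 and the WT mice 69 to 72. Genotype and library number cannot be told apart in that subset. In the libraries numbered above 72, with 2 WT and 3 Fosl-2(Tg) mice, edgeR called 0 (3 at an unadjusted p under 0.05). Over all genes, 619 of 15948 were lower in the libraries up to 72, and 0 of 15699 were called in those above. Several of the genes overlap a gene on the opposite strand (*Kdelr3* and *Ddx17*, *Cope* and *Ddx49*, *Copa* and *Ncstn*, *Ssr4* and *Idh3g*, *Hspa5* and *Rabepk*, *Sec24a* and *Sar1b*), whose reads cannot be told apart where counting ignored strand.

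Whether the genotype difference itself changed between stages was tested by the interaction term. It was more negative at the established stage in 9 members and more positive in none, where 4.00% of 16082 genes were more negative and 3.43% more positive. The genes were *Creb3l1* (-1.62 ± 0.46, FDR = 0.0318), *Kdelr3* (-1.54 ± 0.37, FDR = 0.0138), *Copz2* (-1.25 ± 0.30, FDR = 0.0138), *Sec24d* (-0.69 ± 0.20), *Copg1* (-0.65 ± 0.18), *Sec31a* (-0.63 ± 0.17), *Sec61a1* (-0.57 ± 0.18), *Kdelr1* (-0.55 ± 0.16) and *Atf4* (-0.51 ± 0.14), the last 6 with FDR values from 0.0296 to 0.0466. With the replicate block, 20 members were called, all more negative, where 1141 of 16082 genes were. Early *Creb3l1* had 148, 247 and 411 CPM in the lowest, median and highest WT mouse and 207, 303 and 370.1 CPM in Fosl-2(Tg) mice. Early *Kdelr3* had 50.9, 82.2 and 156 CPM in WT and 67.8, 122 and 131 CPM in Fosl-2(Tg) mice, and early *Copz2* ranged from 48.0 to 134 CPM in WT and from 59.4 to 113 CPM in Fosl-2(Tg) mice. In *Creb3l1* and *Kdelr3* the early medians were thus higher in Fosl-2(Tg) mice, with overlapping ranges, and the established medians lower. *Hspa5* had an interaction term of 0.35 ± 0.28 (FDR = 0.436). Without WT replicate 2 of the established cohort 2 members were called, and without WT replicate 2, 3 or 7 or Fosl-2(Tg) replicate 5 of the early cohort, or Fosl-2(Tg) replicate 1 of the established cohort, 3, 4, 5, 5 and 3. Calls over all genes fell as well. More negative were 644 of 16082 genes with every mouse. In these fits, in the same order, they were 430 of 16158, 399 of 16125, 419 of 16127, 482 of 16028, 456 of 16036 and 426 of 16084. Without WT replicate 5 of the early cohort 18 were called, all more negative, where 996 of 16038 genes were.

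The relation to collagen load was examined as the change in log2 level per doubling of *Col1a1* in the same mouse, with genotype in the model. In the early cohort 6 of 45 members rose with *Col1a1* and none fell, where 2.20% of 15137 genes rose and 0.575% fell. They were *Creb3l1* (0.55 ± 0.09 per doubling, FDR = 0.00576), *Copz2* (0.50 ± 0.11), *Sec24d* (0.30 ± 0.08), *Mia3* (0.28 ± 0.05), *Sec31a* (0.24 ± 0.06) and *Kdelr1* (0.24 ± 0.05), the last 5 with FDR values from 0.0123 to 0.0453. All 9 chaperones had a slope below 0, from -0.28 to -0.04, and none was called (2 at an unadjusted p under 0.05). With the replicate number as a block, 0 members were called by edgeR (14 at an unadjusted p under 0.05), where 22 of 15137 genes rose. Without WT replicate 5, the WT mouse with the highest *Col1a1* level, 0 were also called (10 at an unadjusted p under 0.05), where 28 of 15227 genes rose. Without Fosl-2(Tg) replicate 1 there were 3 and without WT replicate 7 there were 2. Over all genes, 205 of 15109 and 173 of 15190 rose in these fits, against 333 of 15137 with every mouse. In WT mice alone and in Fosl-2(Tg) mice alone 0 were called (13 and 9 at an unadjusted p under 0.05). These 2 fits called 0 of all 14116 and 0 of all 13834 genes, so their zeros are not particular to the members.

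In the established cohort 22 of 45 members rose with *Col1a1* and none fell, where 9.59% of 15861 genes rose and 6.25% fell. *Creb3l1* again led (0.62 ± 0.07 per doubling, FDR = 0.000301), followed by *Kdelr3* (0.39 ± 0.06), *Calr* (0.32 ± 0.05), *Pdia4* (0.30 ± 0.06) and *Sec61b* (0.28 ± 0.09). Here the chaperones and isomerases took part, with 6 of 13 called and all 13 slopes above 0. The range of *Col1a1* behind these slopes came from the Fosl-2(Tg) mice, and in particular from replicate 5, the single male, with 1207 CPM, and replicate 1, a female, with 2246 CPM. These 2 mice also had the lowest mean chaperone levels of the Fosl-2(Tg) group, 6.37 and 6.24 on the log2(CPM + 0.5) scale, against 6.54 to 7.09 in the others. Without replicate 5, 2 of 45 members were called, *Creb3l1* (0.50, FDR = 0.00785) and *Sec31a* (0.18, FDR = 0.0443), where 0.754% of all genes rose. In females only, and with the replicate block, *Creb3l1* was the only member called, and in WT mice alone 0 were called (6 at an unadjusted p under 0.05), against 17 in Fosl-2(Tg) mice alone. Over all genes, 71 of 15852 rose in females only and 61 of 15861 with the block. In WT mice alone 0 of 15033 genes were called, and in Fosl-2(Tg) mice alone 725 of 14580 rose. When genotypes were compared at equal *Col1a1*, edgeR called 0 members and 0 of all 15862 genes, so this zero is not particular to the members. At an unadjusted p under 0.05 there were 11 members, 9 higher and 2 lower in Fosl-2(Tg) mice. The established genotypes share no *Col1a1* level, however, and this comparison is an extrapolation.

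**Figure D3:**
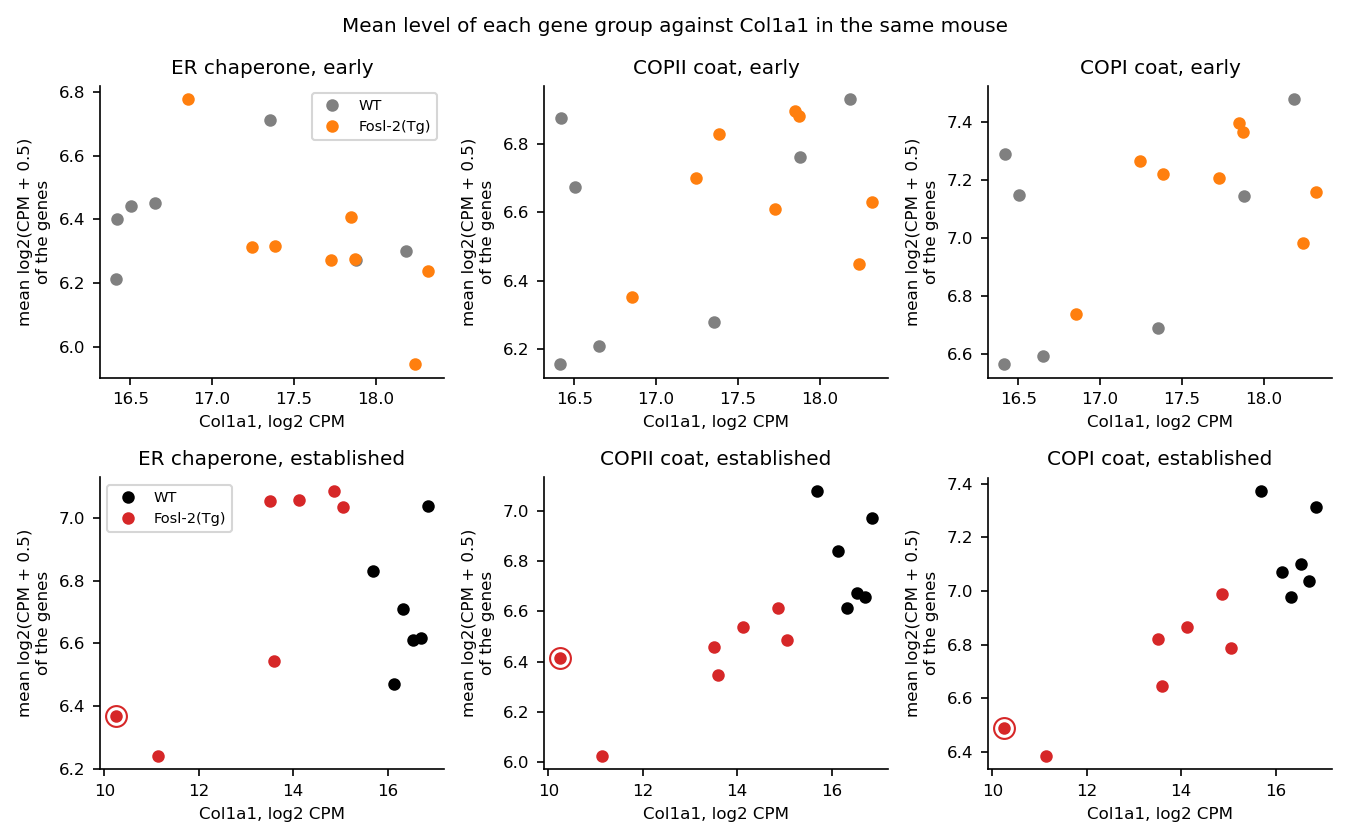
Mean log2(CPM + 0.5) of the 9 ER chaperones, 8 COPII and 8 COPI coat genes against Col1a1 (log2 CPM) in the same mouse, for the early (top) and the established cohort (bottom). Each point is 1 mouse, and the ring marks established Fosl-2(Tg) replicate 5, at 1207 CPM of Col1a1. The established genotypes do not overlap on the Col1a1 axis, and the coat genes are lower at the low Col1a1 levels of the Fosl-2(Tg) mice.

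The early libraries stood apart by their library number in the labels, which was seen in the data and is described without a test. The COPI genes averaged 6.57 to 6.69 on the log2(CPM + 0.5) scale in the 3 WT libraries numbered 49 to 51 and 7.15 to 7.48 in the 4 numbered 58 to 61. In Fosl-2(Tg) mice they averaged 6.74 to 7.16 in the 3 libraries numbered 52 to 54 and 7.21 to 7.40 in the 5 numbered 55 to 63. All 9 higher-numbered libraries lay above all 6 lower-numbered ones in 5 members (*Sec61b*, *Sec23b*, *Copb1*, *Copz1* and *Arcn1*) and below them in 1 (*Sdf2l1*), against 2.43% and 4.04% of all genes. Both genotypes occurred on each side. With library number as a covariate 0 members differed between early genotypes by edgeR (3 at an unadjusted p under 0.05), and 13 instead of 6 rose with *Col1a1*, where 642 of 15137 genes rose. Within the lower-numbered libraries, the 3 WT mice have numbers 49 to 51 and the 3 Fosl-2(Tg) mice 52 to 54. Genotype and library number cannot be told apart there. In that subset edgeR called 0 members and 0 of all 14832 genes. Of the members, 18 were at an unadjusted p under 0.05, all higher in Fosl-2(Tg) mice, and the share of all genes at that p was not computed. Within the higher-numbered libraries 0 members were called and 0 were at an unadjusted p under 0.05, and 2 of 15567 genes were called lower. Whether these differences differed from each other was not tested.

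**Figure D4:**
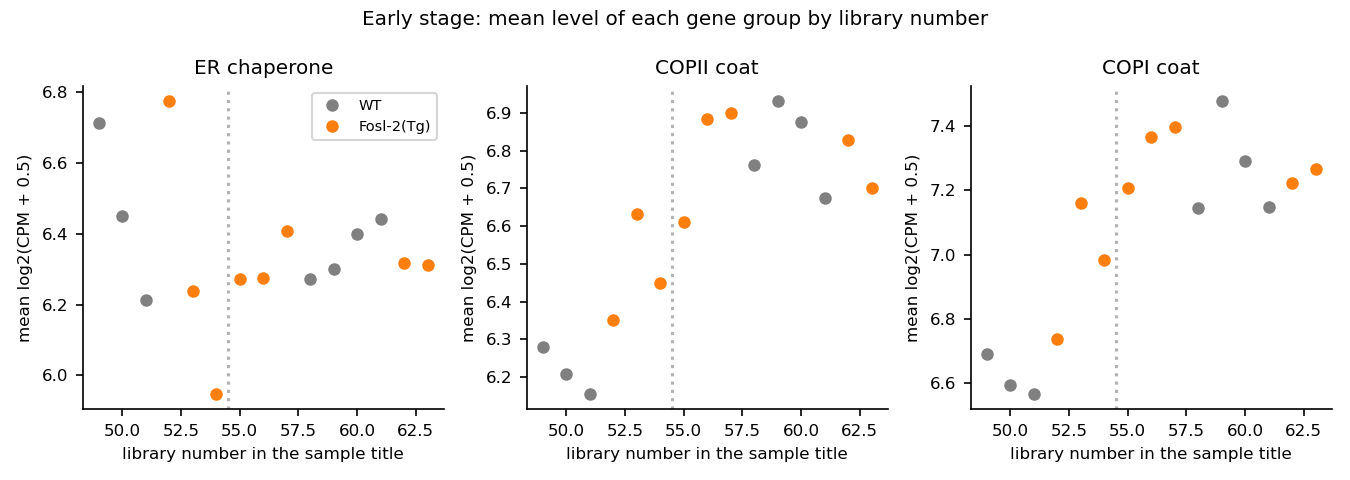
Mean log2(CPM + 0.5) of the ER chaperones, COPII and COPI coat genes in the 15 early mice against the library number given in the labels, with a dotted line between numbers 54 and 55. The COPI mean is higher to the right of the line in both genotypes (7.15 to 7.48 against 6.57 to 6.69 in WT mice), while the chaperone mean overlaps.

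The rest of the pathway was covered by 84 further genes, all of which passed the filter. At the early stage 0 of them were called by edgeR and 0 had an unadjusted p under 0.05. At the established stage 7 were lower and 2 were higher, where 3.37% and 3.14% of all genes were, with a median log2 difference of -0.18. The genes that fell included *Sec22b*, a SNARE of ER to Golgi transport (-0.67 ± 0.12, FDR = 0.0139), *Ssr2* of the translocon-associated complex (-0.73 ± 0.15), *Tmed3*, a p24 cargo receptor (-0.82 ± 0.19), *Srpra*, the signal recognition particle receptor (-0.34 ± 0.08), and *Selenos* of ER-associated degradation (-0.43 ± 0.11), the last 4 with FDR values from 0.0176 to 0.0371. *Sec22b* had 73.8, 90.8 and 104 CPM in the lowest, median and highest WT mouse and 43.4, 57.8 and 71.4 CPM in Fosl-2(Tg) mice, with no overlap. The genes that rose were *Ero1a* (0.31 ± 0.08, FDR = 0.0371) and *Ero1b* (0.38 ± 0.10, FDR = 0.0452), the oxidases that recharge disulfide isomerases. *Ero1a* had 16.7, 20.1 and 21.5 CPM in WT and 22.1, 23.5 and 27.8 CPM in Fosl-2(Tg) mice, again with no overlap. Of 10 targets of the integrated stress response, the programme that ATF4 drives, none was called at either stage, 5 were above and 5 below 0 at the established stage, and all 10 were above 0 at the early stage (median 0.32). The interaction was more negative in 9 of the 84 genes and more positive in 1, and *Col1a1* slopes were positive and called in 4 at the early and 21 at the established stage. Over all genes the shares were 4.00% and 3.43% for the interaction and 2.20% and 9.59% for the positive slopes, so that the 1 more positive interaction and the 2 genes that rose are no more than the background gives.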

How the data were processed

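Tail tendon RNA was measured by bulk RNA-sequencing in 28 mice, with 1 library per mouse. Groups, sex, replicate numbers and library numbers were taken from the labels. The authors depleted ribosomal RNA, aligned reads to GRCm39 with STAR and assigned them to genes with featureCounts. Raw read counts were deposited, without normalisation. The strand setting and the handling of multiply mapped reads are not given in the sources used here.

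Identifiers were named with GENCODE M39, which named 25505 of 25719 genes. Counts were scaled by TMM within each cohort with edgeR 4.0.16 (R 4.3.3) after filterByExpr (minimum count 10, minimum total 15), and genotypes were compared with the quasi-likelihood test. The interaction term came from a single fit of the 4 groups. The slope on *Col1a1* was fitted with genotype in the model, on log2 CPM with a prior count of 2. FDR was computed by Benjamini-Hochberg adjustment over all genes tested, and genes with an FDR of at most 0.05 were called. Levels are CPM, scaled separately in each cohort. Standard errors were derived from the log2 difference and its F statistic. The fits were tested on simulated data.

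The members and lists were chosen with earlier results of these data known. Values per group were given for members called in a genotype comparison or the interaction, for the member with the smallest established p of each role, and for *Hspa5*, *Xbp1*, *Atf4* and *Ddit3*, and of the other pathway genes up to 5 per comparison were named. *Ero1a* and *Ero1b*, and the members named from the slopes, the promoters and the library numbers, were named after their values were seen. Alternatives were DESeq2 1.42.0, RLE scaling, scaling without the collagens *Col1a1*, *Col1a2* and *Col3a1*, no filter, a muscle score or sex as a covariate, females only, single genotypes, all libraries together, the replicate number as a block and each mouse left out. Those based on library number, and on sex for the slopes, were chosen after seeing the data. Mice with the same number had deviations with r of 0.145 to 0.405 in all 7 early pairs. Each early WT mouse was, however, closest to a Fosl-2(Tg) mouse of another number. Early replicates 1 to 3 of both genotypes also shared the library numbers up to 54. In the established cohort r ranged from -0.223 to 0.69. The numbers were thus not shown to pair the mice, and the block served only as an alternative. No libraries were close enough to be duplicates. Library totals ranged from 9645598 to 66894396 counts. Figures were drawn with matplotlib 3.10.9.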

Additional observations from a re-analysis of the deposited data

Results flagged for a closer look

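The genotype difference differed between the stages, by the edgeR interaction term, in *Creb3l1* (-1.62), *Kdelr3* (-1.54), *Copz2* (-1.25), *Sec24d* (-0.69), *Copg1* (-0.65), *Sec31a* (-0.63), *Sec61a1* (-0.57), *Kdelr1* (-0.55) and *Atf4* (-0.51, on the log2 scale as the others). Stage and sex cannot be told apart here.

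Single mice lay far from the others of their group in 10 of 180 tests over genes and groups, where chance gives about 1 in 20, or 9. In the early cohort, Fosl-2(Tg) replicate 1 had 11.5 CPM of *Sdf2l1* against 3.82 to 6.09 CPM in the others, 59.4 CPM of *Copz2* against 83.9 to 113 CPM and 67.8 CPM of *Kdelr3* against 100.8 to 131 CPM. Fosl-2(Tg) replicate 3 had 34.7 CPM of *Manf* against 47.1 to 61.7 CPM, and WT replicate 1 had 32.2 CPM of *Dnajb9* against 20.2 to 24.6 CPM. In the established cohort, WT replicate 6 had 89.0 CPM of *Ssr4* against 50.2 to 58.5 CPM and 193 CPM of *Mia3* against 229.5 to 249 CPM, and WT replicate 2 had 376 CPM of *Calr* against 265 to 286 CPM. Fosl-2(Tg) replicate 1 had 108 CPM of *Sar1a* against 157 to 190.4 CPM and 35.8 CPM of *Sec13* against 46.2 to 56.1 CPM.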

How the results depend on the processing

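Early genotype counts were 0 members with edgeR and DESeq2 in every alternative run, with 0 to 18 members at an unadjusted p under 0.05, and in each of the 15 fits that left out a mouse (0 to 0). Of the 7 established calls, counts became 19 with DESeq2, 18 with the muscle score, 12 with all 28 libraries in 1 fit, 3 in females only, 19 with sex, 13 with library number as a covariate and 0 in the higher library numbers only (3 at an unadjusted p under 0.05), and ranged from 0 to 14 when a mouse was left out. The 9 interaction calls became 20 with the replicate block and ranged from 2 to 18 without 1 mouse. The 6 early slopes became 0 in WT mice only, 0 in Fosl-2(Tg) mice only, 0 with the replicate block and 13 with library number, and ranged from 0 to 9. The 22 established slopes became 0 in WT mice only, 1 with the replicate block, 1 in females only and 12 with sex, and ranged from 2 to 25. The slope fits of a single genotype that called 0 members called 0 of all genes. So did the established comparison in the higher library numbers. In the interaction, all 9 calls remained under the block, which rests on numbers that were not shown to pair the mice. In the genotype comparisons the block changed no count over 1.5 times, whereas it changed the counts of both slopes, as given above. In WT mice only, 21 of the 45 established slopes were below 0, against 5 with both genotypes. Among the 22 called, 4 turned negative, those of *Pdia4* (-0.0090), *Sec61b* (-0.56), *Cope* (-0.24) and *Kdelr2* (-0.17). Of the values of single members under the alternatives, 5425 kept their call or stayed outside the threshold, 283 lost a call and 138 gained one. A further 4 changed sign with a call in the main or the alternative fit. Sign changes of members called in neither fit are among the 5425, so that number does not measure the stability of direction. The causes were not tested. Scaling by RLE, scaling without the 3 collagens and omitting the filter left each count within 1.5 times. Depth limits the precision of low members such as *Sdf2l1*, at 3.82 CPM in its lowest mouse.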
